A study of Mus musculus with 21 samples.

Results

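Genes that carry fatty acids from the blood into heart cells, 10 in number, are described in hearts of Notch3-/- and control mice. They were chosen by name, as genes for fatty acid uptake and binding: Lpl, Gpihbp1, Vldlr, Cd36, Slc27a1, Acsl1, Fabp3, Fabp4, Fabp5 and Dgat2. All 10 were found, by Ensembl identifier, among the 46517 genes of the counts table.

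The heart draws most of its energy from fatty acids, and most of these reach it as triglyceride in lipoproteins. Lipoprotein lipase, held on the capillary wall by an anchor protein on endothelial cells, frees the fatty acids, which cross the endothelium and the muscle cell membrane with the help of membrane and binding proteins. Inside the cell a synthetase links them to coenzyme A, and they are then burned in mitochondria or stored again as triglyceride. Notch3 is a receptor known for its role in vascular smooth muscle cells and pericytes.

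The study asked what loss of Notch3 does to the heart, and RNA sequencing of bulk tissue compared 4 control mice (Notch3+/+) with 3 Notch3-/- mice. In the Notch3-/- mice, per the paper, lacZ is inserted into the Notch3 locus. All 7 mice were on the c57bl/6j strain and untreated, and the RNA came from left ventricle. The paper's legend gives an age of 10 to 14 months, and the sex of the mice is not given in the sources used here. Each mouse had 3 technical libraries, made by amplifying cDNA with PCR, and their counts were added up per mouse. The totals were 3091461, 4638786, 4208205 and 3046326 counts in control mice 1 to 4. They were 3828763, 5167869 and 5086740 counts in Notch3-/- mice 1 to 3. The deepest mice were thus control mouse 2 and Notch3-/- mice 2 and 3. Single libraries ranged from 464390 to 2427783 counts, a 5.23-fold range. The labels of control mice 1 and 2 start with X and those of the other 5 mice with k. Whether X marks a set of mice, or is only a prefix before a number, is not given in the sources used here. Since the X mice are all controls, genotype within the X labels could not be compared.

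Levels are given in CPM, TMM-normalized counts scaled to a common library size, for single mice in the order control 1 to 4 and Notch3-/- 1 to 3. Where CPM of single technical libraries are given, they are scaled by the library's own total, without TMM. Notch3 itself, which checks the labels, stood at 57.3, 42.1, 57.6 and 61.8 CPM in the control mice and at 6.01, 7.57 and 4.73 CPM in the Notch3-/- mice. Every Notch3-/- mouse was below every control mouse, so the labels hold, and reads of the gene were reduced but present (22, 36 and 25 counts). The log2 fold change, Notch3-/- against control, was −3.16 (SE 0.23; FDR 0.00173, the Benjamini-Hochberg adjusted p of edgeR's quasi-likelihood test). Notch3 was the 1 gene called of 14324 tested, where a call needs an FDR under 0.05 and a fold change of at least 1.5. DESeq2 on the same sums called 597 genes, in a fit of 28790 genes, so tool and filter changed together. With every gene of at least 1 count, edgeR called 639 of 28790.

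The labelled tissue was checked by its markers. The 10 cardiomyocyte markers, led by Ttn, summed to 32306, 23457, 27395 and 31225 CPM in the control mice and to 32125, 21484 and 23170 CPM in the Notch3-/- mice. Markers of liver cells stood apart in Notch3-/- mice 1 and 2. The 20 hepatocyte markers, led by Trf (transferrin), summed to 206, 322, 121 and 132 CPM in the control mice and to 8150, 15612 and 294 CPM in the Notch3-/- mice. Of the 18 that could be tested, 18 were higher in the Notch3-/- mice, each with an unadjusted edgeR p under 0.05 (7.34% of all genes) and none called. Some were near 0 in the control mice, such as Apob at 0 to 2.11 CPM, against 250, 1120 and 3.03 CPM. For these, passing the filter on low counts and being higher were not independent, so the count is in part set by the filter. None of the 20 was at 0 in every mouse. Without Notch3-/- mice 1 and 2 the median log2 fold change of these markers was 1.09.

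Compared with each other per kilobase of transcript, the 10 genes spanned a wide range in the control mice. Lpl (509 ± 44.3 CPM per kb, SD, n = 4), Cd36 (485 ± 43.2) and Fabp3 (445 ± 76.9) were the most abundant, and their ranges overlapped from each gene to the next. Their order changed with the library. Fabp3 was the highest of the 3 in 3 of 21 libraries, among them the smallest, where it stood at 835 CPM per kb against 769 for Lpl and 613 for Cd36. Fabp4 (286, from 229 to 344 between mice), Dgat2 (263 ± 49.7) and Acsl1 (259 ± 18.8) followed, again with overlapping neighbours. Slc27a1 (140 ± 20.1) and Gpihbp1 (117 ± 10.2) overlapped as well. Vldlr (52.7 ± 4.70) and Fabp5 (13.7 to 27.4 CPM per kb) were the lowest, and each was apart from the gene above it in 7 of 7 mice. The steps from Fabp3 to Fabp4 and from Acsl1 to Slc27a1 also held in 7 of 7 mice.

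**Figure D1:**
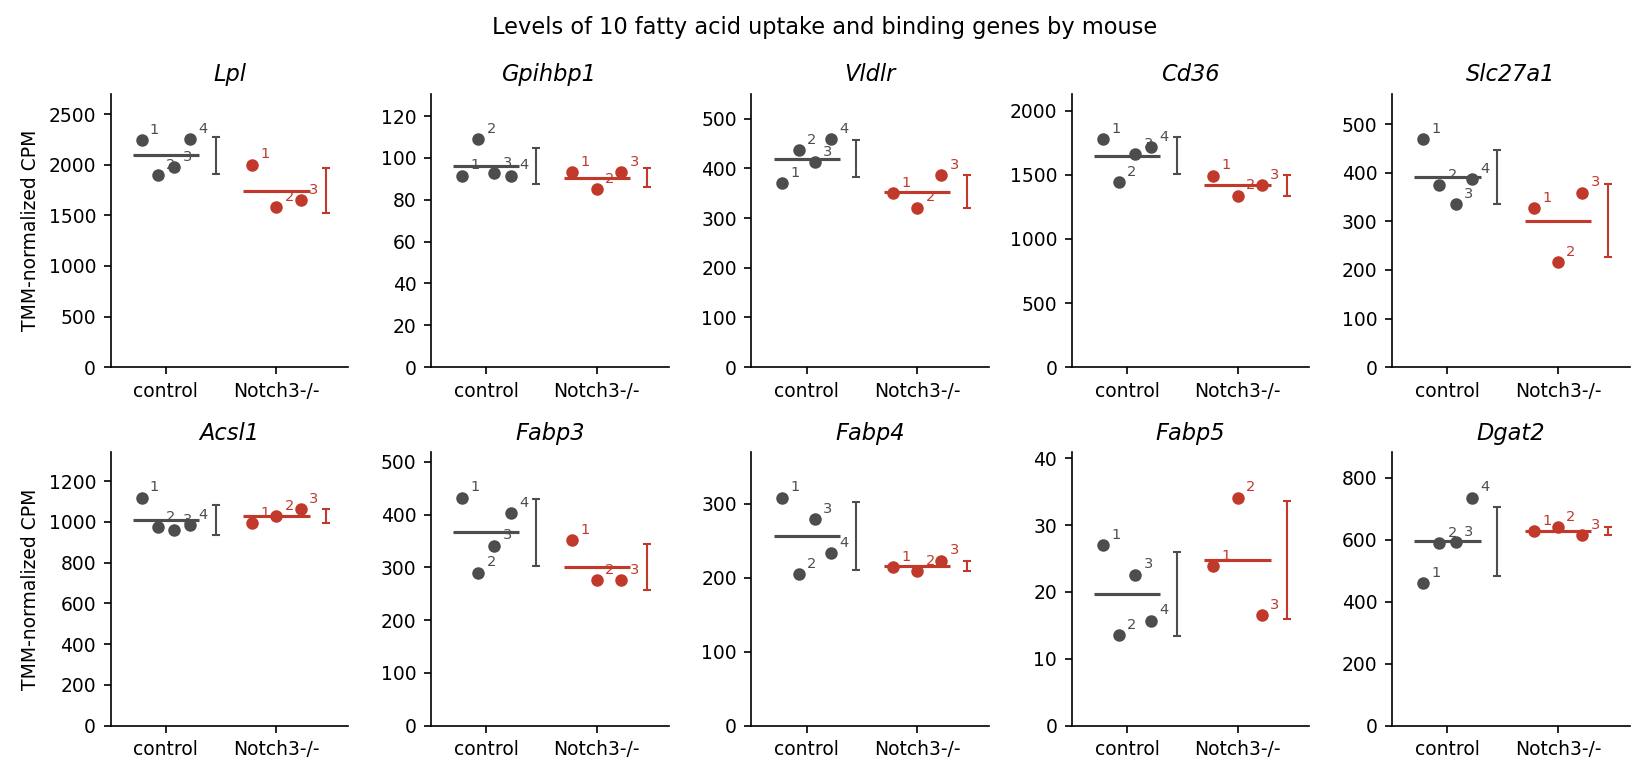
Level of each of the 10 genes in CPM (vertical axes, each starting at 0) in single mice, numbered, with the group mean and SD beside the points. The control and Notch3-/- mice overlap in all 10 panels, for example 205 to 308 CPM against 209 to 223 CPM for Fabp4.

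The first step is release of fatty acids at the capillary wall. Lpl (ENSMUSG00000015568, chr8:68880491-68907448 in GRCm38, plus strand) encodes lipoprotein lipase itself. It stood at 2245, 1899, 1978 and 2254 CPM in the control mice and at 2001, 1583 and 1654 CPM in the Notch3-/- mice. Notch3-/- mice 2 and 3 were below every control mouse, and mouse 1 lay within the control range. The means were 2094 ± 182 (SD, n = 4) and 1746 ± 224 CPM (SD, n = 3), a log2 fold change of −0.26 (SE 0.11, 95% confidence interval −0.52 to −0.01). The FDR was 0.472 in edgeR's test with Benjamini-Hochberg adjustment, so Lpl was not called, although it had the smallest p of the 10 genes. With depth as a covariate its log2 fold change was −0.10 (mouse total) or −0.07 (library total). From the library nearest the median total it was −0.13. In bulk tissue, fewer cells of a type and less RNA per cell cannot be told apart.

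Gpihbp1 (ENSMUSG00000022579, chr15:75596628-75599481, plus strand) encodes the endothelial anchor that holds the lipase. Its level was 91.5, 109, 92.9 and 91.5 CPM in the control mice and 93.2, 85.2 and 93.2 CPM in the Notch3-/- mice. The groups overlapped, and control mouse 2 was above the other 6. Between the groups this gave a log2 fold change of −0.09 (SE 0.13, 95% confidence interval −0.38 to 0.20; edgeR FDR 0.860, Benjamini-Hochberg). Its sign was not stable, since it was 0.13 from the third technical libraries alone, and it was −0.03 without control mouse 2.

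Vldlr (ENSMUSG00000024924, chr19:27216484-27254231, plus strand) encodes a receptor that binds triglyceride-rich lipoproteins. It was at 371, 437, 412 and 459 CPM in the control mice and at 351, 321 and 387 CPM in the Notch3-/- mice. The lowest control mouse, number 1, lay inside the Notch3-/- range, and the other 3 were above it. Vldlr had a log2 fold change of −0.25 (SE 0.11, 95% confidence interval −0.51 to 0.01; edgeR FDR 0.490, Benjamini-Hochberg). Without Notch3-/- mice 1 and 2 it was −0.12, and from the first technical libraries alone it was −0.44.

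The next step is passage through the membrane and activation. RefSeq windows of the 250 bases before a transcription start were available for 5 of the 10 genes, 9 windows in all. They were searched on both strands for TGGGAA, the core letters bound by CSL (Rbpj), the DNA-binding partner of Notch receptors, and for AGGTCA, letters bound by many nuclear receptors of lipid metabolism. No match of one motif overlapped a match of the other. TGGGAA was found in 3 of the 9 windows, against 21.6% of 32851 windows of all genes. AGGTCA was found in 1 of the 9, against 14.0% of all windows. The 3 windows with TGGGAA belonged to Cd36, Slc27a1 and Acsl1, none of them holding an annotated exon, and are shown so that the matches can be read in place. They are from GRCm38.p6, read along the gene's strand, with matches on either strand in capitals.
Cd36, chr5:17835897-17836146, minus strand: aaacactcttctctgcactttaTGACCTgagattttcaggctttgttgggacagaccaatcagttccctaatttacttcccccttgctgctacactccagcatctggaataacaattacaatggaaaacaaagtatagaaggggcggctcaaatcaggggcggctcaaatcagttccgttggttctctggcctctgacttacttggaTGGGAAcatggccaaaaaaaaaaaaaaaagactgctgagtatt
Slc27a1, chr8:71568621-71568870, plus strand: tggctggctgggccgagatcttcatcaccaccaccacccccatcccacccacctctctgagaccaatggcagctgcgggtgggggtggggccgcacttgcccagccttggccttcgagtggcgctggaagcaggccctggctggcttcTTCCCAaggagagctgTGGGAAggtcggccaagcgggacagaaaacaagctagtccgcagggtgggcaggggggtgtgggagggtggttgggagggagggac
Acsl1, chr8:46490716-46490965, plus strand: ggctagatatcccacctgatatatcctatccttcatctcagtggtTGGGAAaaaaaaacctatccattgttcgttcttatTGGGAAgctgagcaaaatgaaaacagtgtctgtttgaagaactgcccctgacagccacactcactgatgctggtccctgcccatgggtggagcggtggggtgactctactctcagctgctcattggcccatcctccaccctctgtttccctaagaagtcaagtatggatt
In the Cd36 window the capitals are AGGTCA on the opposite strand, 228 bases before the start, and TGGGAA at 43 bases. In the Slc27a1 window they are TGGGAA at 86 bases and, on the opposite strand, at 102 bases, and in the Acsl1 window TGGGAA at 205 and 170 bases. Such a match describes the letters, not binding.

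Cd36 (ENSMUSG00000002944, chr5:17781690-17888801, minus strand) encodes a membrane protein that takes up long-chain fatty acids. It stood at 1778, 1442, 1659 and 1718 CPM in the control mice and at 1494, 1337 and 1419 CPM in the Notch3-/- mice. Control mouse 2 lay among the Notch3-/- mice, and the other 3 control mice were above them. The edgeR fit gave a log2 fold change of −0.22 (SE 0.10, 95% confidence interval −0.44 to 0.00; edgeR FDR 0.488, Benjamini-Hochberg). It was −0.14 from the library nearest the median total, and −0.10 (mouse total) or −0.06 (library total) with depth as a covariate.

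Slc27a1 (ENSMUSG00000031808, chr8:71568882-71587302, plus strand) encodes a fatty acid transport protein. It had the lowest fold change of the 10 genes. Its level was 469, 375, 336 and 386 CPM in the control mice and 327, 216 and 359 CPM in the Notch3-/- mice. Notch3-/- mouse 2 was far below the rest, and mouse 3 was above control mouse 3. Between the groups this gave a log2 fold change of −0.38 (SE 0.18, 95% confidence interval −0.79 to 0.03; edgeR FDR 0.502, Benjamini-Hochberg). Without Notch3-/- mouse 2 it was −0.19, and without Notch3-/- mice 1 and 2 it was −0.12. In the other direction, it was −0.54 without Notch3-/- mouse 3 and −0.62 from the first technical libraries alone.

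Acsl1 (ENSMUSG00000018796, chr8:46471037-46536051, plus strand) encodes the main synthetase that activates fatty acids in heart muscle. It was at 1119, 976, 961 and 984 CPM in the control mice and at 992, 1029 and 1062 CPM in the Notch3-/- mice. Control mouse 1 was the highest of all, and the other 3 control mice were below the Notch3-/- mice. Acsl1 had a log2 fold change of 0.03 (SE 0.09; edgeR FDR 0.949, Benjamini-Hochberg). Its 95% confidence interval of −0.18 to 0.23 spans 0.882-fold to 1.17-fold, the narrowest interval of the 10 genes. The sign was not stable, since it was −0.18 from the first technical libraries alone.

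Binding proteins carry the fatty acid within cells. Fabp3 (ENSMUSG00000028773, chr4:130308595-130315463, plus strand) is the form of heart muscle cells. It stood at 432, 290, 341 and 402 CPM in the control mice and at 351, 276 and 275 CPM in the Notch3-/- mice. The lowest mice were Notch3-/- 2 and 3 and control mouse 2, and mouse 1 of the Notch3-/- group was above control mice 2 and 3. The edgeR fit gave a log2 fold change of −0.29 (SE 0.16, 95% confidence interval −0.64 to 0.07; edgeR FDR 0.566, Benjamini-Hochberg). It was −0.14 from the library nearest the median total, and with depth as a covariate it was −0.01 (mouse total) or 0.02 (library total), so its sign was not stable.

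Fabp4 (ENSMUSG00000062515, chr3:10204088-10208576, minus strand) is the form of capillary endothelium and fat cells. Its level was 308, 205, 279 and 233 CPM in the control mice and 214, 209 and 223 CPM in the Notch3-/- mice. The Notch3-/- mice lay close together above control mouse 2 and below the other 3. Between the groups this gave a log2 fold change of −0.25 (SE 0.15, 95% confidence interval −0.58 to 0.08; edgeR FDR 0.594, Benjamini-Hochberg). It was −0.15 without control mouse 1 and −0.05 from the first technical libraries alone.

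Fabp5 (ENSMUSG00000027533, chr3:10012548-10016607, plus strand), also made in endothelial cells and macrophages, was at 27.0, 13.5, 22.6 and 15.7 CPM in the control mice and at 23.8, 34.1 and 16.5 CPM in the Notch3-/- mice. Notch3-/- mouse 2 was the highest, and the other mice were mixed. Fabp5 had a log2 fold change of 0.33 (SE 0.31, 95% confidence interval −0.36 to 1.03; edgeR FDR 0.753, Benjamini-Hochberg). It was 0.03 without Notch3-/- mouse 2 and −0.25 without both Notch3-/- mice 1 and 2. Leaving out Notch3-/- mouse 3 gave 0.56, control mouse 1 gave 0.52 and control mouse 2 gave 0.18. The third technical libraries alone gave 0.70.

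Fabp3 and Fabp5, but not Fabp4, share more sequence with other genes than the rest of the 10 do. Of the 773 stretches of 51 bases (the read length) in the main Fabp3 transcript, 285 (36.9%) recur in transcripts of other genes. Most of these, 224, lie in the pseudogene Fabp3-ps1, which had 12, 15, 24 and 11 counts in the control mice and 10, 14 and 17 in the Notch3-/- mice. For Fabp5 the share was 191 of 937 (20.4%), of which 180 lie in Gm6166, with 0 counts in every mouse. The share was 4.06% for Lpl, 1.68% for Slc27a1 and 0 for the other 6 genes. How reads that match several genes were counted is not given in the sources used here.

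Storage is represented by Dgat2 (ENSMUSG00000030747, chr7:99153658-99182719, minus strand), whose product catalyses the last step of triglyceride synthesis. Its level was 461, 589, 593 and 736 CPM in the control mice and 629, 641 and 615 CPM in the Notch3-/- mice. The Notch3-/- mice lay within the control range. The edgeR fit gave a log2 fold change of 0.08 (SE 0.14, 95% confidence interval −0.24 to 0.40; edgeR FDR 0.889, Benjamini-Hochberg), and its sign turned to −0.03 without control mouse 1.

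**Figure D2:**
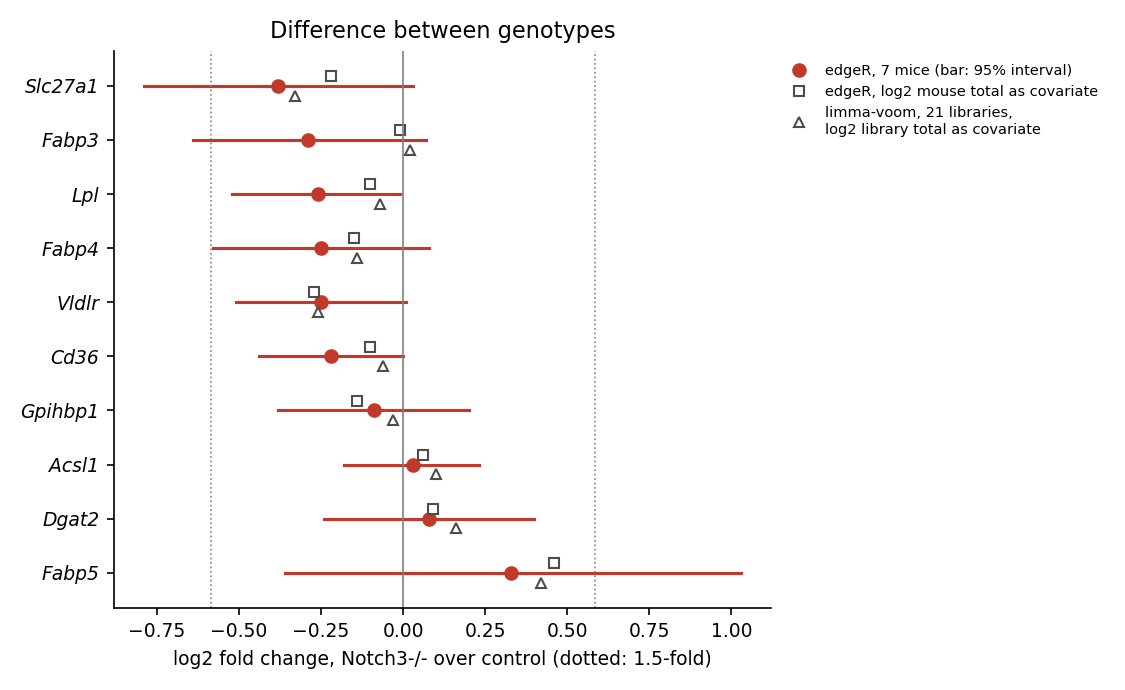
Log2 fold change, Notch3-/- against control, of each of the 10 genes (filled points, horizontal axis) with the 95% confidence interval of the edgeR fit, beside 2 fits with depth as a covariate (open squares and triangles), and dotted lines at a 1.5-fold change. The edgeR values run from −0.38 (Slc27a1) to 0.33 (Fabp5), and with depth as a covariate Fabp3 moves from −0.29 to −0.01 and 0.02.

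Over the 10 genes, all of which passed the filter on low counts, 0 were called by edgeR, by DESeq2 and by limma-voom, against 0.00698% of all genes in edgeR. DESeq2 called 3.43% of 17393 genes, and limma-voom on the 21 libraries called 65 of 11193. At an unadjusted edgeR p under 0.05, 1 of the 10 was lower (Lpl) and 0 were higher, against 3.05% and 7.34% of all genes. In 0 of the 10 did the groups not overlap, against 3.96% of all genes lower and 4.57% higher without overlap. By sign, 7 of the 10 were lower in the Notch3-/- mice, and 50.4% of all genes had a negative log2 fold change. The median log2 fold change of the 10 was −0.23, and that of all genes tested was −0.003. The former was −0.16 without Notch3-/- mice 1 and 2, −0.13 from the library nearest the median total, and −0.10 or −0.04 with depth as a covariate. These counts describe the 10 genes, and the 7 of 10 lower were not tested against the share over all genes.

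The 10 genes can also be followed mouse by mouse. Taking each gene's log2 difference from its mean in the control mice, the median over the 10 genes was 0.13, −0.10, −0.04 and 0.02 in the control mice and −0.06, −0.30 and −0.16 in the Notch3-/- mice. Notch3-/- mice 2 and 3 were below every control mouse, and mouse 1 was between control mice 2 and 3. Notch3-/- mouse 1 and control mouse 2 therefore made the groups overlap. Among the mice with k labels, the median log2 fold change was −0.26, with 8 of the 10 genes lower.

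**Figure D3:**
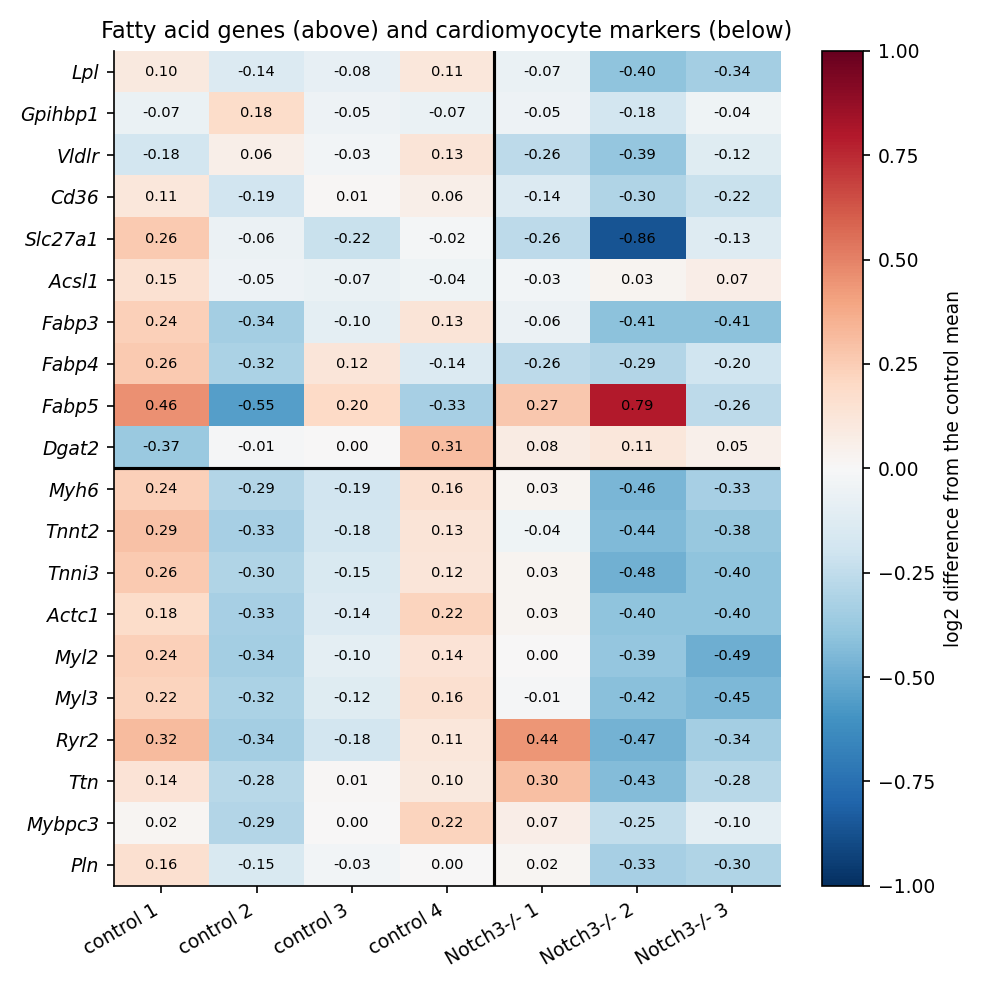
Log2 difference from the control mean (colour and printed value) in each of the 7 mice, for the 10 fatty acid genes in the order of their roles and, under the line, the 10 cardiomyocyte markers. Over the fatty acid genes Notch3-/- mouse 2 has the lowest median, −0.30, and control mouse 1 the highest, 0.13, and both mice hold these places for the markers too.

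The heart muscle markers were set beside the fatty acid genes. In the Notch3-/- mice 10 of 10 cardiomyocyte markers were lower. Their median was −0.24 (log2 fold change), and none had an unadjusted edgeR p under 0.05. Leaving out 1 mouse moved this median to −0.15 (without control mouse 1, or without Notch3-/- mouse 2, where 8 of 10 were lower) and to −0.40 (without Notch3-/- mouse 1). The direction was not stable. With depth as a covariate 1 of 10 was lower, with a median of 0.05 (mouse total) or 0.04 (library total). From the library nearest the median total it was −0.04. Taken the same way, the median over the 10 markers was 0.23, −0.31, −0.13 and 0.13 in the control mice and 0.03, −0.43 and −0.36 in the Notch3-/- mice. As with the fatty acid genes, the 2 highest control mice were 1 and 4 and the 2 lowest mice were Notch3-/- 2 and 3. The sizes differed by mouse, as in Notch3-/- mouse 3, at −0.36 for the markers and −0.16 for the fatty acid genes. None of these markers was at 0 in every mouse, and their part in the result was not tested.

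Library depth was examined next. Between the 3 libraries of a mouse, which hold the same RNA, a count should rise in proportion to the library total, a slope of 1 on log2 scales. For Fabp3 the slope was 0.23 (SE 0.05, 13 residual degrees of freedom), lower than in all but 0.337% of the 3565 genes with a mean of at least 100 counts per library. The Fabp3 count was 319 in the smallest library (464390 counts, 687 CPM) and 514 in the largest (2427783 counts, 212 CPM), a count only 1.61-fold higher at 5.23-fold the depth. These are libraries of different mice, control mouse 4 and Notch3-/- mouse 3. Within mice, the CPM of Fabp3 was lower in the deepest than in the shallowest library in 7 of 7 mice, for example 317 against 687 CPM in control mouse 4.

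Lpl had a slope of 0.53 (SE 0.03), with 3.37% of genes lower. Cd36 had a slope of 0.70 (SE 0.04), with 8.05% of genes lower. Vldlr, at 1.16 (SE 0.08), and Slc27a1, at 0.99 (SE 0.10), rose about in proportion. The remaining genes were Gpihbp1 and Dgat2 (0.87 each), Fabp4 (0.90), Acsl1 (0.93) and Fabp5 (1.41, SE 0.31). The median slope was 0.89 over the 10 genes and 1.11 over the 3565 genes. The median slope of the 10 cardiomyocyte markers was 0.36, and their summed counts had a slope of 0.52 (SE 0.08).

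**Figure D4:**
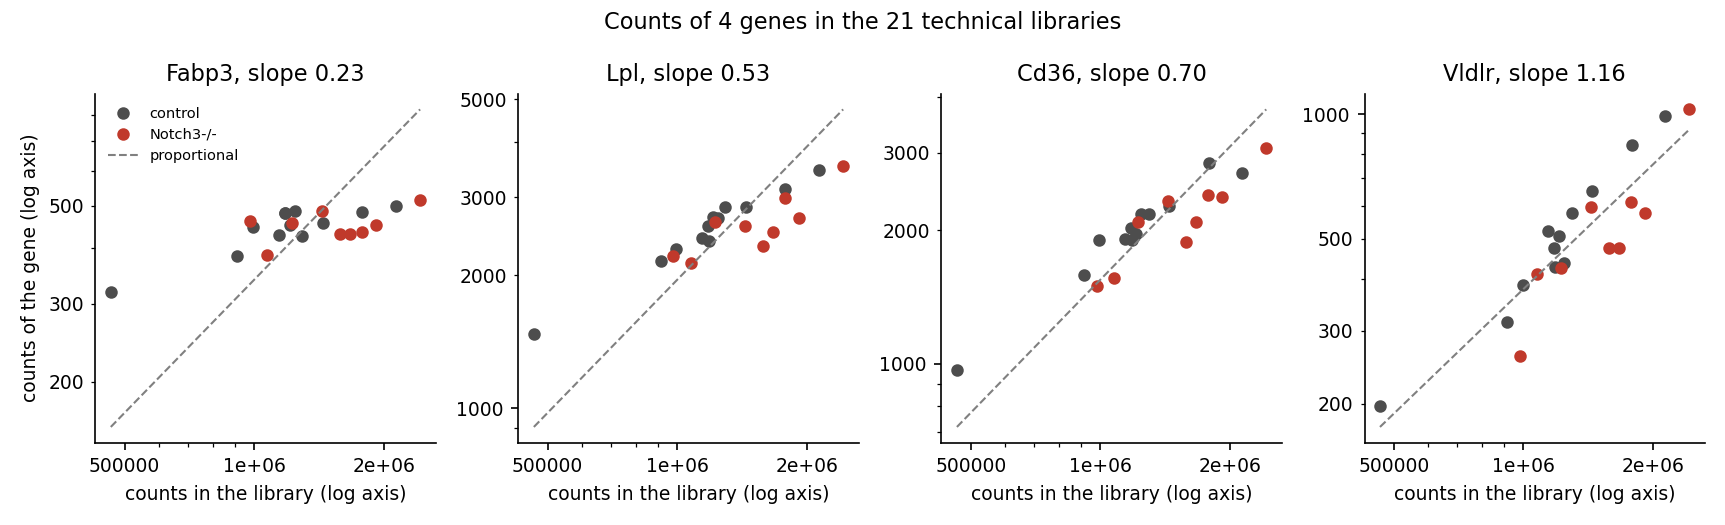
Counts of 4 genes against the total counts of the library, both on log axes, in each of the 21 technical libraries of control (grey) and Notch3-/- mice (red), with a dashed line where a count is proportional to the total. Fabp3 rises from 319 to 514 counts between the smallest and the largest library, far less steeply than the dashed line, and Vldlr rises along it.

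The deepest mice included 2 of the 3 Notch3-/- mice, so the comparison was repeated with depth taken into account. With the log2 mouse total as a covariate in edgeR, the log2 fold change was −0.10 for Lpl, −0.10 for Cd36 and −0.01 for Fabp3. It was −0.27 for Vldlr and −0.22 for Slc27a1. With the log2 library total as a covariate over the 21 libraries in limma-voom, it was −0.07 for Lpl, −0.06 for Cd36 and 0.02 for Fabp3. It was −0.26 for Vldlr and −0.33 for Slc27a1. The same limma-voom fit without the covariate gave −0.28 for Lpl, −0.23 for Cd36, −0.28 for Fabp3, −0.26 for Vldlr and −0.43 for Slc27a1. Fabp4, with a slope of 0.90, went from −0.25 to −0.15 in the first fit, and from −0.22 to −0.14 with the covariate in the second. The part of depth in the genotype difference was not tested. The median over the 10 genes was −0.10 in the first fit and −0.04 in the second. From 1 library per mouse, the one nearest the median total, it was −0.13, with −0.14 for Vldlr and −0.34 for Slc27a1. From the same libraries the log2 fold change was −0.13 for Lpl, −0.14 for Cd36, −0.14 for Fabp3 and −0.31 for Fabp4. The median was −0.24 after thinning to the smallest mouse total, and −0.24 with counts corrected for levelling off at 2 counts per exon base. Thinning does not bear on the slopes, since it scales all genes of a mouse alike. The ceiling was chosen and not measured, so the corrected value cannot decide the part of depth. No library came above 42.9% of that ceiling for any of the 10 genes. The median of the cardiomyocyte markers was 0.05 and 0.04 in the 2 covariate fits, with 1 of 10 lower in each. From the library nearest the median total it was −0.04.

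The other genes of the pathway were taken as 5 lists with 78 genes. Of these, edgeR called 0 in any list and DESeq2, in its fit of 28790 genes, 8 in all. With every gene of at least 1 count, edgeR called 12, against 639 of all 28790 genes. The DESeq2 share over all genes with an adjusted p was 3.43%. The counts at an unadjusted edgeR p under 0.05, given for each list, can be read against 3.05% of all genes lower and 7.34% higher. The first list holds 12 genes that mature or control the lipase, of which 9 were tested, 1 was lower and 8 were higher. An unadjusted p under 0.05 was reached by 0 lower and 6 higher genes, and the median log2 fold change was 1.35. With at least 10 counts required in every mouse, the median was 0.57. Apoa5, which activates the lipase, was at 0.988, 2.95, 0 and 0 CPM in the control mice and at 183, 634 and 2.08 CPM in the Notch3-/- mice. Apoc3, which inhibits it, was at 0.659, 3.37, 0 and 0.668 CPM and at 212, 315 and 5.11 CPM. Both were high in Notch3-/- mice 1 and 2, the mice with high hepatocyte markers, and the liver is the known main source of their products. Their log2 fold changes were 7.92 (SE 1.56) and 7.06 (SE 1.26), with a smallest edgeR FDR of 0.118 (Benjamini-Hochberg). For genes this low in the control mice, passing the filter on low counts and being higher were not independent. The count of 6 higher genes is thus in part set by the filter. Sdc4, a proteoglycan gene, followed in mice 1 and 2 (1.35, SE 0.46). Without Notch3-/- mice 1 and 2 the median of the list was 0.54. It was 0.59 without mouse 2 and 3.09 without mouse 3, and the part of liver RNA was not tested. Other settings gave 2.99 (DESeq2), 2.91 (every gene of at least 1 count) and 0.49 (the first technical libraries alone).

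Sel1l, needed for the lipase to leave the endoplasmic reticulum, was at 88.6, 88.7, 103 and 105 CPM in the control mice and at 108, 176 and 140 CPM in the Notch3-/- mice. All 3 Notch3-/- mice were above the control mice. Between the groups this gave a log2 fold change of 0.56 (SE 0.17; edgeR FDR 0.289, Benjamini-Hochberg).

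The list of other transporters, carriers and synthetases holds 24 genes, of which 18 were tested, 7 lower and 11 higher, with a median log2 fold change of 0.28. An unadjusted p under 0.05 was reached by 1 lower and 7 higher genes. Fabp1, the liver binding protein gene, was at 0.329, 2.95, 0 and 0.334 CPM in the control mice and at 152, 315 and 4.35 CPM in the Notch3-/- mice (log2 fold change 7.21, SE 1.31). For a gene this low in the control mice, passing the filter on low counts and being higher were not independent. The count of 7 higher genes is thus in part set by the filter. Acsl5 was at 35.6, 39.6, 37.6 and 45.8 CPM and at 108, 346 and 42.9 CPM (2.06, SE 0.54). These too were high in Notch3-/- mice 1 and 2, and the median of the list without those mice was 0.10. It was 0.49 without control mouse 1, 0.10 without Notch3-/- mouse 2 and 0.70 without Notch3-/- mouse 3. Other settings gave 0.47 (DESeq2), 0.15 (at least 10 counts in every mouse) and 0.04 (library nearest the median total). In limma-voom on the 21 libraries the median was 0.11, and 0.08 with the library total as covariate. The most abundant genes of the list, Got2 (−0.18), Acss1 (−0.12) and Cavin1 (−0.13), had small log2 fold changes, and their groups overlapped.

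Among 9 regulators of passage across capillary endothelium, 9 were tested, 3 lower and 6 higher, with a median log2 fold change of 0.05. The sign of this median was not stable, since it was −0.07 without Notch3-/- mouse 3, and it was 0.01 without control mouse 1, 0.02 without control mouse 3, 0.11 without Notch3-/- mouse 1, 0.16 without Notch3-/- mouse 2 and 0.16 without Notch3-/- mice 1 and 2. An unadjusted p under 0.05 was reached by 1 lower and 1 higher gene, and in both the groups did not overlap, against 3.96% of all genes lower and 4.57% higher without overlap. Vegfb, a growth factor that promotes endothelial fatty acid uptake, was at 135, 125, 144 and 150 CPM in the control mice and at 104, 69.0 and 112 CPM in the Notch3-/- mice. Every Notch3-/- mouse was lower, and the log2 fold change was −0.55 (SE 0.18; edgeR FDR 0.320, Benjamini-Hochberg). Apln, the gene of the peptide apelin, was at 35.6, 31.4, 28.9 and 30.1 CPM in the control mice and at 39.6, 47.5 and 39.9 CPM in the Notch3-/- mice. Every Notch3-/- mouse was higher, and the log2 fold change was 0.43 (SE 0.15; edgeR FDR 0.361, Benjamini-Hochberg). The VEGF-B receptor genes Flt1 (−0.29) and Nrp1 (0.22) overlapped between the groups.

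Of 24 genes for triglyceride synthesis, lipid droplets and lipolysis, 23 were tested, 14 lower and 9 higher, with a median log2 fold change of −0.05. It was −0.15 to 0.01 on leaving out 1 mouse, the lowest without Notch3-/- mouse 3 and the highest without control mouse 2, and 0.02 without Notch3-/- mice 1 and 2. An unadjusted p under 0.05 was reached by 2 lower genes and 1 higher gene. Pnpla2, the main triglyceride lipase inside cells, was at 637, 554, 517 and 629 CPM in the control mice and at 491, 381 and 534 CPM in the Notch3-/- mice. Only Notch3-/- mouse 3 reached the control range, and the log2 fold change was −0.32 (SE 0.14; edgeR FDR 0.476, Benjamini-Hochberg). Hilpda, which inhibits that lipase, was at 9.88, 9.69, 11.3 and 9.69 CPM in the control mice and at 7.10, 4.63 and 7.94 CPM in the Notch3-/- mice. The groups did not overlap, and the log2 fold change was −0.63 (SE 0.28; edgeR FDR 0.479, Benjamini-Hochberg). Lpin2 reached 197 CPM in Notch3-/- mouse 2, against 12.7 to 33.9 CPM in the other 6 mice, so its log2 fold change of 2.16 rests on that mouse. Fitm2 (−0.05) and Plin5 (−0.23) overlapped between the groups.

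Of 9 genes for entry into mitochondria, 9 were tested, 5 lower and 4 higher, with a median log2 fold change of −0.08. Leaving out 1 mouse gave −0.16 (without Notch3-/- mouse 3) to −0.03 (without Notch3-/- mouse 2), and leaving out Notch3-/- mice 1 and 2 gave 0.03. An unadjusted p under 0.05 was reached by 1 lower gene and 0 higher genes. That gene was Cpt1b, the muscle form of the gatekeeper enzyme, at 1148, 961, 977 and 1142 CPM in the control mice and 882, 743 and 956 CPM in the Notch3-/- mice. The groups did not overlap, and the log2 fold change was −0.30 (SE 0.12; edgeR FDR 0.430, Benjamini-Hochberg). Crat (−0.23) and Cpt2 (−0.08) overlapped.

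**Figure D5:**
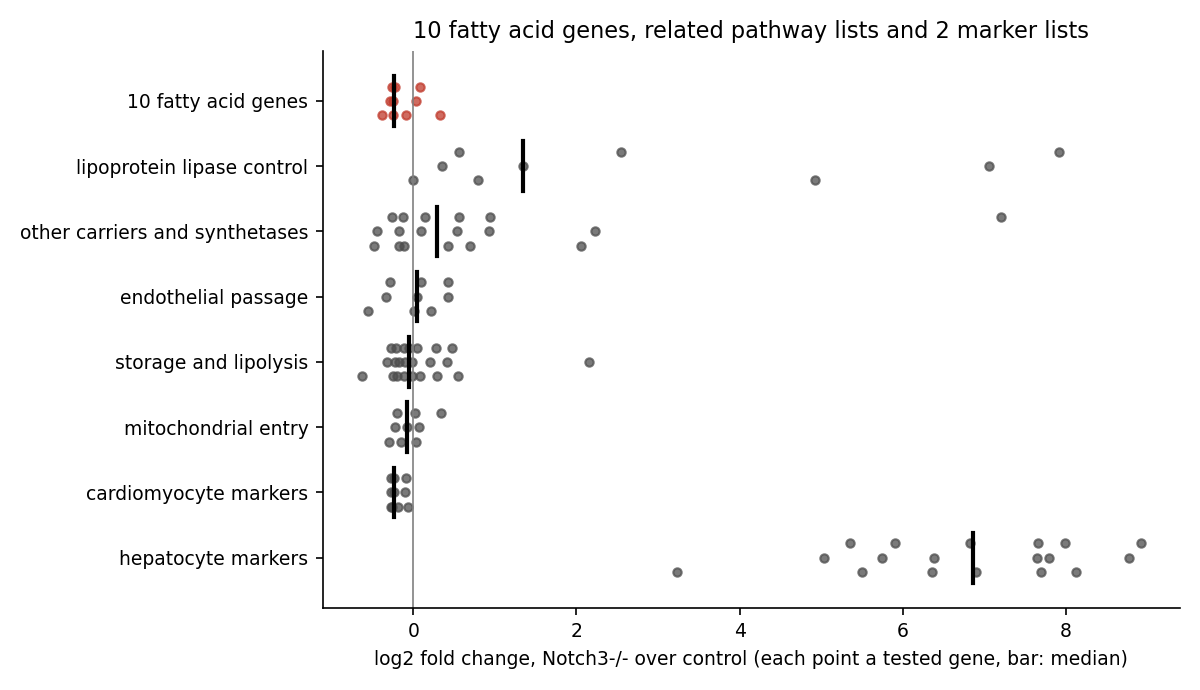
Log2 fold change, Notch3-/- against control, of each tested gene (points) in the 10 fatty acid genes, the 5 pathway lists and the cardiomyocyte and hepatocyte markers, with the median of each as a bar. The medians of the gene lists run from −0.23 in the 10 genes to 1.35 in the genes that control the lipase, and the hepatocyte markers have a median of 6.86.

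Markers of other cells that express fatty acid genes were set beside the 10 genes, and the part of each in the results was not tested. The 12 endothelial markers, led by Eng, summed to 2128, 1716, 1965 and 2386 CPM in the control mice and to 2174, 2308 and 2166 CPM in the Notch3-/- mice. Of these, 4 were lower and 8 higher, with a median log2 fold change of 0.04. The 11 macrophage markers, led by Lyz2, summed to 585, 519, 638 and 588 CPM and to 618, 597 and 676 CPM, with a median of 0.22. The 11 adipocyte markers, led by Lipe, summed to 317, 322, 256 and 328 CPM and to 542, 1046 and 334 CPM, and 4 of them could be tested (median 0.63). The high values were in Notch3-/- mice 1 and 2, as for the hepatocyte markers, and without those mice the median was −0.08. Car3 (238 and 534 CPM in those mice, 2.27 CPM in mouse 3) and Thrsp (152 and 309 CPM, and 64.1 CPM), named after their values were seen, carried the rise. Lipe itself had a log2 fold change of −0.33. Levels within this list were uneven. Adiponectin (Adipoq) had 0 to 7 counts per mouse and perilipin 1 (Plin1) 0 to 1, both named after their values were seen, and Lipe stood at 89.4 to 157 CPM.

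The 11 markers of smooth muscle cells and pericytes, led by Des, summed to 3071, 2679, 2675 and 3043 CPM in the control mice and to 2791, 2145 and 2351 CPM in the Notch3-/- mice. Des alone made up a large part of these sums, at 1536, 1306, 1373 and 1639 CPM and at 1373, 1066 and 1216 CPM. As with the cardiomyocyte markers, control mice 1 and 4 were the highest for Des and Notch3-/- mice 2 and 3 the lowest. Which cells its reads came from cannot be told in bulk tissue. Of the 10 markers tested, 8 were lower, and the median was −0.23 (log2 fold change). An unadjusted edgeR p under 0.05 was reached by 4 lower genes, 3 of them without overlap, against 3.05% and 3.96% of all genes. Without Notch3-/- mice 1 and 2 the median was −0.35. The lowest was Myh11, named after its values were seen, at 39.8, 20.4, 10.6 and 19.7 CPM and at 3.28, 5.05 and 3.59 CPM (−2.49, SE 0.45; edgeR FDR 0.118, Benjamini-Hochberg). The 2 higher genes were Acta2 and Mylk, also named after their values were seen. Acta2 was at 160, 167, 83.5 and 89.2 CPM and at 267, 36.0 and 114 CPM (0.15, SE 0.53). Mylk had a log2 fold change of 0.24 (SE 0.38). The 9 fibroblast markers, led by Dcn, summed to 1675, 1497, 1461 and 1442 CPM and to 1599, 1717 and 1976 CPM, with a median of 0.11. Of these, 4 were higher and 1 lower at an unadjusted edgeR p under 0.05, against 7.34% and 3.05% of all genes. Without overlap, 2 were higher and 1 lower, against 4.57% and 3.96%. Without Notch3-/- mice 1 and 2 the median was 0.28. The 7 red blood cell markers, led by Hbb-bs, summed to 470, 355, 354 and 549 CPM and to 304, 478 and 206 CPM. Of these, 5 of 5 tested were lower, with a median of −0.48 and values from −0.60 to −0.06. An unadjusted edgeR p under 0.05 was reached by 2 lower and 0 higher genes, against 3.05% and 7.34% of all genes. In 1 lower gene the groups did not overlap, against 3.96%. Without Notch3-/- mice 1 and 2, which leaves only Notch3-/- mouse 3, 6 of the markers were tested and the median was −1.10. No marker in any of the 8 lists was at 0 in every mouse.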

How the data were processed

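Polyadenylated RNA of heart tissue from 7 mice was sequenced as single reads of 51 bases. The deposited table holds raw counts per Ensembl gene, which the authors made for each of the 21 technical libraries, with CASAVA and the mm10 build named in their notes. The aligner, the counting program, the use of strand and the treatment of duplicate reads are not given in the sources used here. The 92 spike-in lines, with 34 counts in all, were left out, and the 3 libraries of each mouse were summed.

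Genes were kept by filterByExpr (14324 of 46517), scaled by TMM and tested with edgeR 4.0.16 (quasi-likelihood, R 4.3.3), with Benjamini-Hochberg adjustment over all genes tested. SEs and 95% confidence intervals follow from that fit. The functions were first tested on simulated data. The paper used DESeq2, tried here as an alternative in version 1.42.0, beside limma-voom 3.58.1, other normalizations and filters, single mice or technical libraries, and depth settings. Positions and transcripts came from GENCODE vM21. Slopes are least-squares fits of log2 counts (with 0.5 added) on log2 library totals within mice. PCR reads without molecular identifiers are not independent molecules, so counting error alone understates the error.

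The genes and lists were chosen with earlier results of these data known. Besides the 10 genes and Notch3, the genes named were taken from the 3 most abundant of each pathway list, up to 3 with the smallest edgeR p among those under 0.05, the most abundant of each marker list, and any marker at 0 in every mouse. Myh11, Acta2, Mylk, Adipoq, Plin1, Car3 and Thrsp lie outside this rule and were chosen after their values were seen, and Fabp3-ps1 and Gm6166 were named for the sequence they share.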

Additional observations from a re-analysis of the deposited data

Results flagged for a closer look

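Among the 4 control mice, 5 of 51 quantities had 1 mouse far from the other 3. The measure is the gap between that mouse and its nearest neighbour, as a share of the whole control range, set against Dixon's critical value at the 95% level. Chance flags about 1 in 20 such groups, and the cause was not tested.

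For Gpihbp1 the share was 0.918, with control mouse 2 at 109 CPM above the others at 91.5 to 92.9 CPM. For Acsl1 it was 0.856, with control mouse 1 at 1119 CPM above the others at 961 to 984 CPM. Of the pathway genes, Fabp1 had a share of 0.887 (control mouse 2 at 2.95 CPM, the others at 0 to 0.334 CPM) and Hilpda 0.880 (control mouse 3 at 11.3 CPM, the others at 9.69 to 9.88 CPM). The summed adipocyte markers had a share of 0.845, with control mouse 3 at 256 CPM below the others at 317 to 328 CPM. The group of 3 Notch3-/- mice was too small for this measure.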

How the results depend on the processing

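Of the 10 genes, 0 were called under each of the 25 alternatives, and 6 to 8 were lower. Each of Lpl, Vldlr, Cd36, Slc27a1 and Fabp4 was lower under all 25, and the smallest adjusted p of any of the 10 was 0.153 (Slc27a1, limma-voom on the 21 libraries, range 0.153 to 0.951).

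The median log2 fold change of the 10 genes (−0.23, SD 0.10 between control mice) was −0.13 from the library nearest the median total, −0.10 with the log2 mouse total as covariate and −0.04 with the log2 library total as covariate. This last setting was added after seeing the data. Leaving out 1 mouse gave −0.26 to −0.17. The cause was not tested.

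Signs turned for 5 genes, none of them called. Gpihbp1 was 0.05 from technical library 1, −0.41 from library 2, 0.13 from library 3 and 0.05 from the library nearest the median. Acsl1 was −0.18 from technical library 1, and −0.01 without control mouse 3 or without Notch3-/- mouse 3. Leaving out 1 mouse moved it up to 0.08. Dgat2 was −0.05 from technical library 1, −0.03 without control mouse 1 and −0.09 in the k mice alone, and up to 0.20 on leaving out 1 mouse. Fabp5 was −0.25 without Notch3-/- mice 1 and 2. Fabp3 was 0.02 with the log2 library total as covariate.

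The number of genes called (1, Notch3) was 597 with DESeq2, 639 in edgeR with every gene of at least 1 count and 0 in the k mice alone. Both of the first 2 fits held 28790 genes, against 14324 in the main fit, so the DESeq2 setting changed tool and filter together. The number was 65 with limma-voom on the 21 libraries and 62 with the technical library number as a replicate block. It was 48, 39 and 77 from technical libraries 1, 2 and 3, 80 from the library nearest the median and 11 with the log2 library total as covariate. Leaving out 1 mouse gave 1 to 936, the most without Notch3-/- mouse 3. Calls in the 5 pathway lists (0) numbered 8 with DESeq2, 12 with every gene of at least 1 count and 3 from technical library 3, and 0 to 16 on leaving out 1 mouse. The cause was not tested.

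Libraries with the same technical number in different mice had a median r of −0.0149 (63 pairs), against 0.00367 with different numbers (126 pairs), after each mouse's mean was taken off. The replicate block left the median of the 10 genes at −0.23.

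The call needs a fold change of 1.5, and 9 of the 10 genes had 95% confidence intervals wider than that of Acsl1. That interval runs from 0.882-fold to 1.17-fold. In the same edgeR fit the intervals of Fabp3 (from 0.642-fold), Slc27a1 (from 0.578-fold) and Fabp5 (to 2.04-fold) reached a 1.5-fold change, and those of the other genes did not. The interval of Fabp5, with as few as 2 counts in a library, goes from −0.36 to 1.03 on the log2 scale. If the X labels mark a set of mice, which the sources used here do not say, genotype and label cannot be told apart there. The sex of the mice, their diet and lipid levels were not used here, and RNA levels do not measure uptake of fatty acids.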
